A study of Homo sapiens with 4 samples.

Results

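The 58 translation factor genes described here carry gene symbols that begin with EIF or EEF and a digit. They were found among 17687 genes with a probe set of their own symbol on an Affymetrix whole-transcript array, and each had 1 probe set. Total RNA came from A549, an established human lung adenocarcinoma line, and every culture carried a short hairpin RNA against LDOC1 (shLDOC1). H2BK120R is a histone H2B in which arginine replaces the lysine that accepts monoubiquitin, and 2 of the 4 arrays came from cells expressing it. The other 2 came from cells with the vector alone (V). Per the submitters' design text, H2Bub1, the monoubiquitylated form of H2B, went up on LDOC1 depletion and down again with the mutant, so the comparison asks which transcripts differ when that mark is reduced on an LDOC1-depleted background. All 4 cultures grew under puromycin. No array came from cells with added unmutated H2B, so the mutation and the expression of extra histone cannot be told apart. The labels do not say whether a line was 1 clone, or whether replicates were separate cultures, so the spread behind each p-value is that of 4 arrays and may be technical.

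Initiation factors bring the initiator tRNA, the small ribosomal subunit and the messenger RNA together at a start codon, and elongation factors then deliver tRNAs to the ribosome and move it along. eIF2 carries the initiator tRNA, eIF2B recharges eIF2 with GTP, eIF3 is the large scaffold on the small subunit, and eIF4 recognises and unwinds the capped end of the message. eEF1 delivers aminoacyl-tRNAs and eEF2 drives translocation. Stress kinases act on eIF2 and growth signalling acts on eIF4E, which makes these the best known points of control of protein synthesis.

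Values are log2 signals per probe set, with array medians between 6.40 and 6.43. A signal depends on the probes as well as on the RNA, so levels are not compared between genes. In bulk RNA, fewer cells in a state and less RNA per cell cannot be told apart. The keratin genes KRT8 and KRT18 had mean signals of 17.15 and 15.04 and E-cadherin (CDH1) 10.92, while the epithelial marker EPCAM, at 5.58, lay under the table's median of 6.41. Mean signals were between 4.30 and 4.92 over 4 measured leukocyte markers, between 3.66 and 3.77 over 4 endothelial markers and between 5.65 and 5.77 over 4 fibroblast markers, and COL1A2 was the 1 gene of these above the table's median. Vector replicate 1 correlated least with the other arrays (Pearson r of 0.990 to 0.991 across probe sets, against 0.993 to 0.994 among the other 3 arrays). After Benjamini-Hochberg adjustment in limma, 0 of 21448 probe sets (0%) had a p under 0.05, and before it 1437 (6.70%) did.

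The translation factor genes as a group had nearly the same signals with H2BK120R as with the vector. Of the 58 genes, 31 were lower with the mutant (49.4% of all probe sets were), 24 higher and 3 equal, with a median log2 difference of -0.02 (H2BK120R minus vector), where the median over all probe sets was 0.00. None passed the adjusted threshold in limma, and 4 had an unadjusted p under 0.05, of which 3 were lower (3.08% of all probe sets) and 1 higher (3.62% of all probe sets). At 4 of 58 this share is close to the background of 6.70%. Both mutant arrays lay below both vector arrays for 16 genes, where 17.9% of all probe sets did so, and above them for 7 genes, where 18.6% did. The 2 groups overlapped for 60.3% of the factors and 63.5% of all probe sets. Differences ranged from -0.495 for EIF6 to 0.47 for EEF2KMT. The mean size of a difference was 0.149 for the factors and 0.243 for all probe sets, and their median standard errors were 0.165 and 0.284. The factors were mostly bright on the array: 55 lay at or above the table's median, and 23 were in its brightest 10%, where the median standard error was 0.129 and the median difference 0.045. Leaving out each array in turn, 25 of the 58 genes kept the sign of their difference in all 4 fits.

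**Figure D1:**
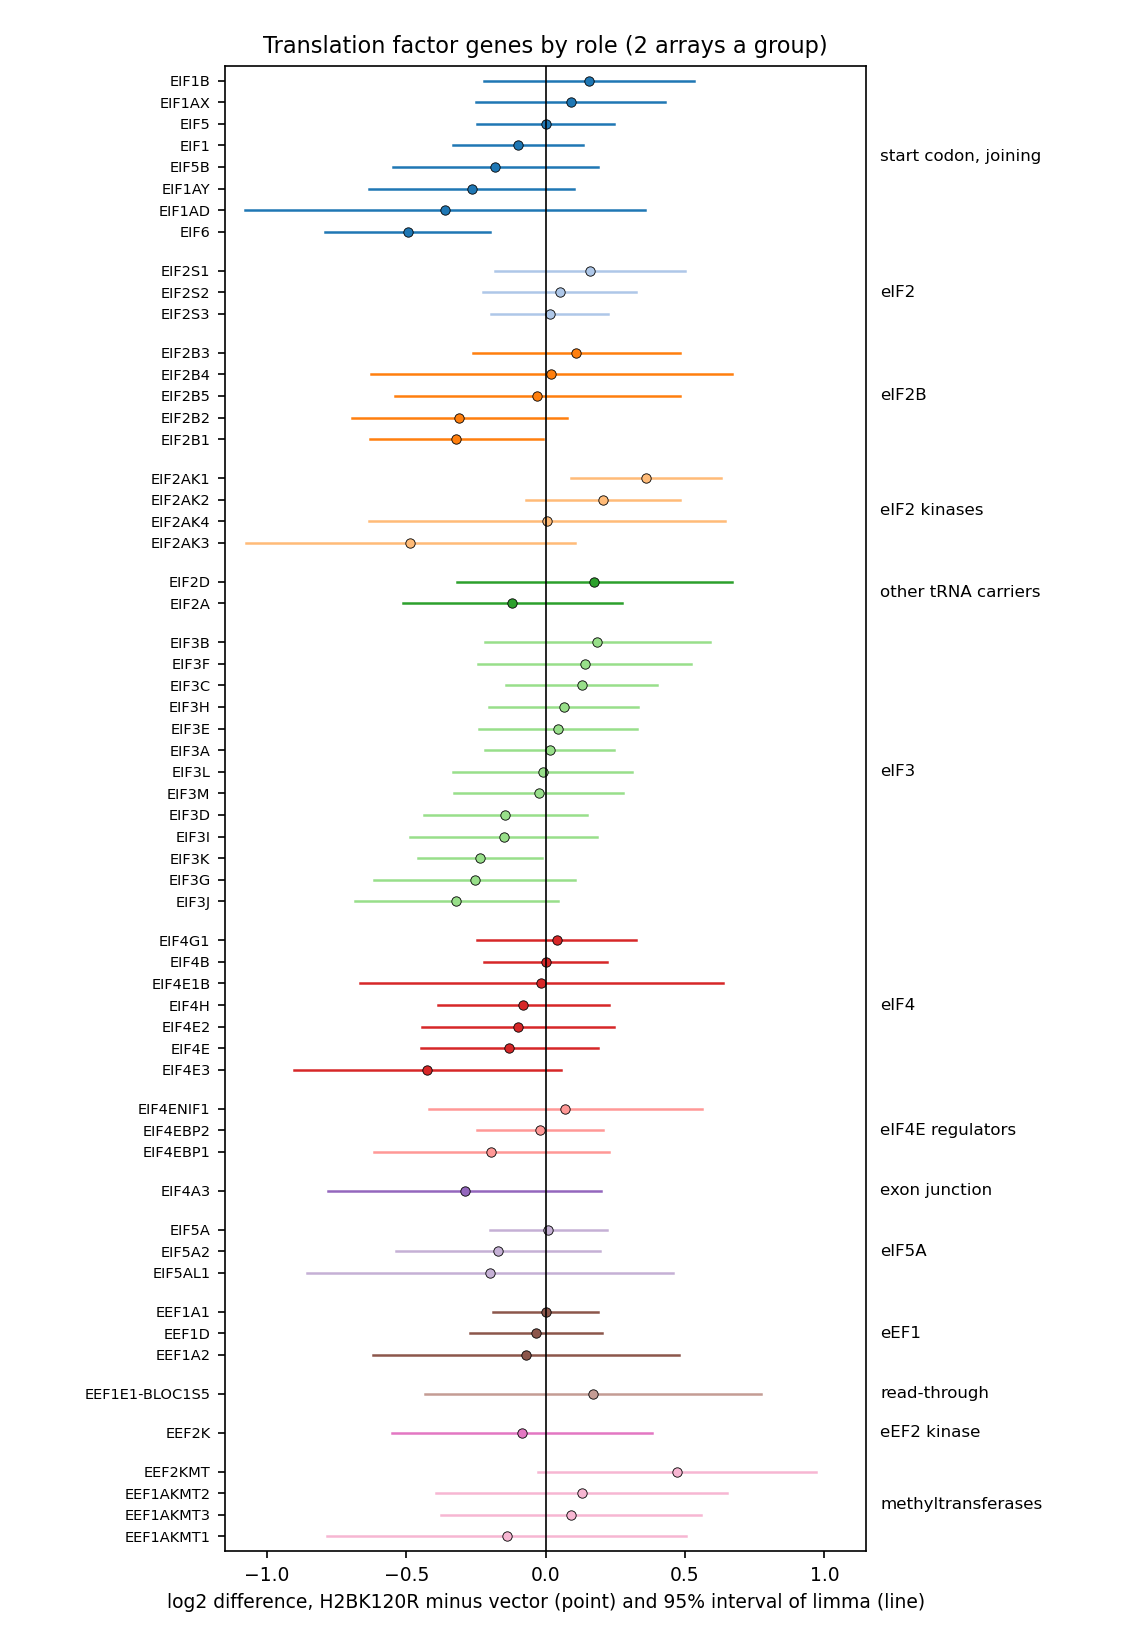
Log2 differences, H2BK120R minus vector, of the 58 genes grouped by role, with limma's 95% confidence intervals (2 arrays a group). Intervals of EIF6, EIF2AK1, EIF3K and EIF2B1 do not reach 0, and before adjustment these are the 4 genes with a p under 0.05.

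**Figure D2:**
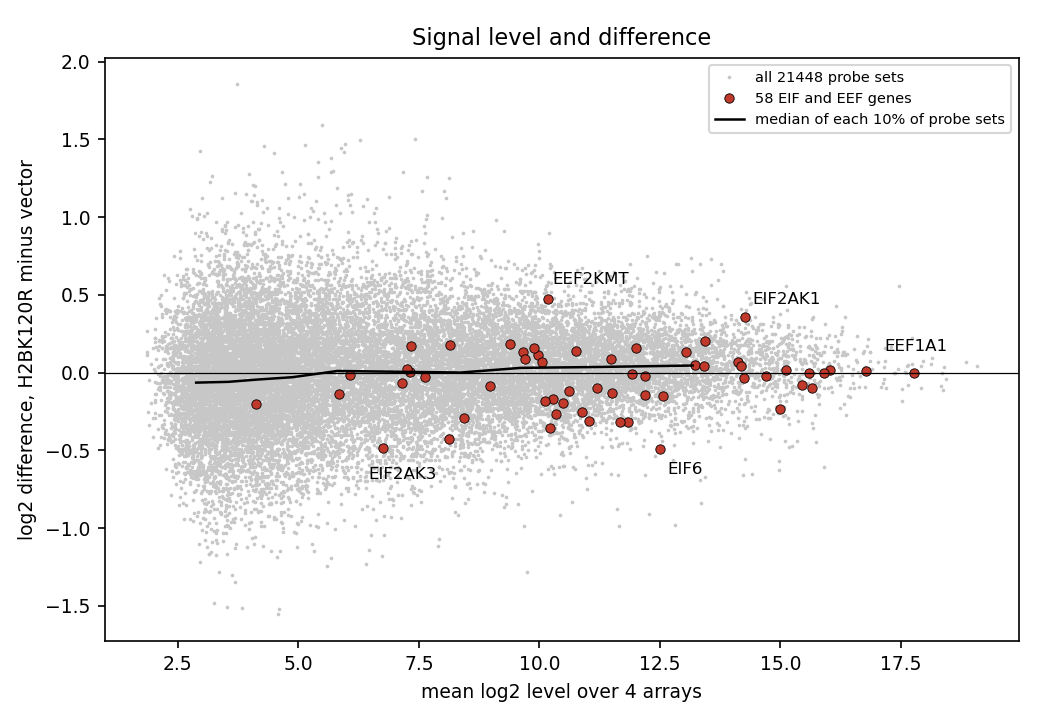
Difference between the groups (log2) against the mean log2 level over 4 arrays for all 21448 probe sets (grey) and the 58 translation factor genes (red), with the median of each bin of 10% of the probe sets by level (line). The factors lie inside the cloud of all probe sets, and 23 of them fall in the brightest 10%.

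The eIF2 trimer, which carries the initiator tRNA to the small subunit, showed small differences in all its subunits. EIF2S1 encodes the alpha subunit whose phosphorylation slows initiation. It measured 12.04 and 12.12 with H2BK120R and 11.74 and 12.10 with the vector, a difference of 0.16 ± 0.15 (SE). EIF2S2, the beta subunit, measured 13.18 and 13.31 against 13.13 and 13.26 with the vector, a difference of 0.05. For EIF2S3, the gamma subunit that binds GTP and the tRNA, the values were 16.06 and 16.01 against 15.97 and 16.07, a difference of 0.015 with a 95% interval of -0.195 to 0.225. The groups overlapped for each of the 3 genes. Their median of 0.05 became -0.02 when vector replicate 1 was left out and 0.115 when vector replicate 2 or H2BK120R replicate 1 was.

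The 5 genes of eIF2B, the exchange factor that reloads eIF2, differed among themselves. EIF2B1, the regulatory alpha subunit, measured 11.64 and 11.71 with the mutant and 11.92 and 12.07 with the vector. Its difference of -0.32 ± 0.14 (SE) had an unadjusted p of 0.0433 and a limma adjusted p of 0.745. EIF2B2, the beta subunit, measured 11.09 and 10.67 against 11.25 and 11.13, a difference of -0.31 ± 0.17 (SE). Without H2BK120R replicate 2 it was -0.10, and without H2BK120R replicate 1 it was -0.52, while EIF2B1 stayed between -0.395 and -0.245 with any 1 array left out. Both mutant arrays were below both vector arrays for EIF2B1 and EIF2B2 (17.9% of all probe sets). EIF2B3, the gamma subunit, was above with the mutant in both arrays (10.06 and 9.98 against 9.94 and 9.88), as were 18.6% of all probe sets. The difference of 0.11 was smaller than its standard error of 0.17. The delta and epsilon subunits EIF2B4 and EIF2B5 differed by 0.02 and -0.03, each with overlapping groups. The median of the 5 was -0.03.

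Kinases that phosphorylate eIF2 in response to different stresses were separated in sign. EIF2AK1 (HRI), which responds to heme shortage and to mitochondrial and oxidative stress, measured 14.37 and 14.53 with H2BK120R and 13.98 and 14.20 with the vector. The difference of 0.36 ± 0.12 (SE) had an unadjusted p of 0.0132 and a limma adjusted p of 0.717. EIF2AK2 (PKR), which senses double-stranded RNA, measured 13.49 and 13.57 against 13.22 and 13.43, a difference of 0.205 ± 0.13 (SE). For both of these, each mutant array lay above each vector array (18.6% of all probe sets). EIF2AK3 (PERK), the kinase of the endoplasmic reticulum, went the other way with 6.36 and 6.66 against 6.91 and 7.08. Its difference was -0.485 ± 0.27 (SE), with a limma adjusted p of 0.767. For EIF2AK4 (GCN2), which senses uncharged tRNA, mutant cells averaged 7.33 ± 0.25 and vector cells 7.32 ± 0.48 (SD, n = 2 in each group). That difference of 0.005 became 0.345 when vector replicate 1 was left out and -0.335 when vector replicate 2 was, and 0.18 or -0.17 when H2BK120R replicate 1 or 2 was, so either group can turn its sign. The other carriers of initiator tRNA, EIF2A and EIF2D, differed by -0.12 ± 0.18 and 0.175 ± 0.22 (SE).

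**Figure D3:**
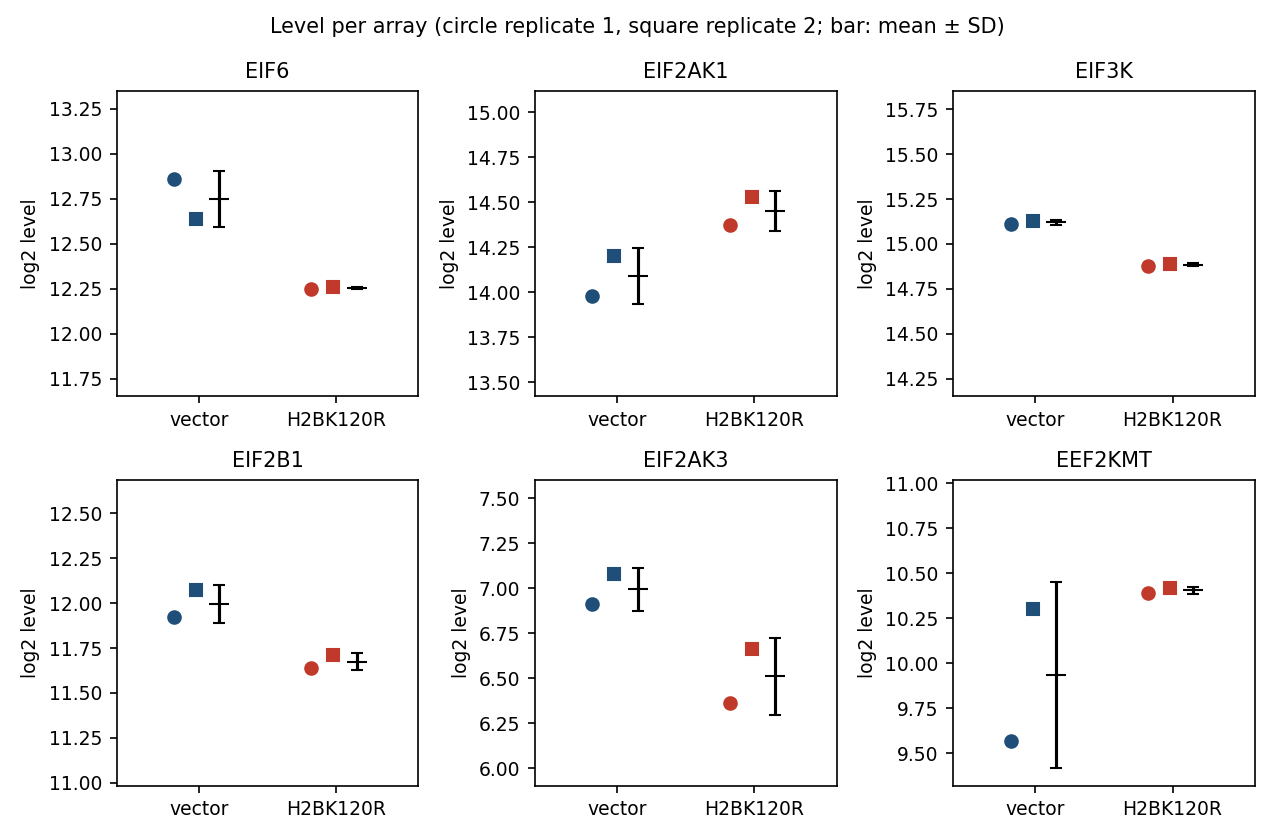
Log2 level in each array of the 4 genes with an unadjusted p under 0.05 and of EIF2AK3 and EEF2KMT, with the mean and SD of each group (n = 2). Every panel spans the same number of log2 units. Groups do not overlap in any of the 6 panels, nor do they for 36.5% of all probe sets. The 6 genes were picked for their p-values or for lying near an end of the differences. The widest bar is that of EEF2KMT in the vector cells, whose arrays were at 9.57 and 10.30.

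In eIF3, the scaffold that holds the other factors on the small subunit, there were 7 lower and 6 higher genes among 13 measured, around a median of -0.01. EIF3K, a small peripheral subunit, measured 14.88 and 14.89 with the mutant and 15.11 and 15.13 with the vector. Its replicates were close, and its difference of -0.235 ± 0.10 (SE) lay between -0.245 and -0.225 with any 1 array left out (unadjusted p = 0.0398, limma adjusted p = 0.745). EIF3J, a loosely bound subunit that helps recruit and release the complex, measured 11.57 and 11.46 against 11.63 and 12.04, a difference of -0.32 ± 0.17 (SE). Without vector replicate 2 its difference was -0.115. EIF3G, an RNA-binding subunit, measured 10.83 and 10.70 against 11.16 and 10.88, a difference of -0.255 ± 0.16 (SE). EIF3D, which can itself bind the cap of selected messages, was at 12.11 in both mutant arrays and at 12.31 and 12.20 with the vector. In these 4 of the 13 genes both mutant arrays were the lower ones, as they were for 17.9% of all probe sets.

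On the other side, EIF3B, the subunit around which eIF3g and eIF3i assemble, measured 9.42 and 9.55 with the mutant and 9.25 and 9.35 with the vector, a difference of 0.185 ± 0.18 (SE). EIF3C, a core scaffold subunit, measured 13.05 and 13.16 against 13 and 12.95. Its probes may also read the near-identical copy EIF3CL. Both mutant arrays were the higher ones in these 2 genes, as they were for 18.6% of all probe sets. Neither difference exceeded limma's standard error by much. EIF3F and EIF3H, which carry the MPN fold, differed by 0.14 and 0.065. The PCI-domain subunits EIF3A, EIF3E, EIF3L and EIF3M differed by 0.015, 0.045, -0.01 and -0.025, and EIF3I, a beta-propeller subunit, by -0.15. These 7 genes had overlapping groups. By architecture, a grouping chosen after the values were seen, the 8 PCI and MPN subunits had a median of 0.03 with 5 higher and 3 lower. The 3 genes of the b, g and i module had a median of -0.15, with EIF3B opposite in sign to EIF3G and EIF3I. For all 13 genes the median became -0.09 when vector replicate 1 was left out and 0.055 when H2BK120R replicate 1 was.

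The eIF4 genes, which act at the cap, had a median of -0.08 over 7 measured members, with 5 lower, 1 higher and 1 equal. EIF4E3, an unusual cap-binding homolog of eIF4E, measured 7.94 and 7.89 with the mutant and 8.43 and 8.25 with the vector. Its difference was -0.425 ± 0.22 (SE), with a limma adjusted p of 0.760. EIF4E, the main cap-binding protein, measured 11.39 and 11.51 against 11.63 and 11.53, a difference of -0.13 ± 0.14 (SE). EIF4E2 (4EHP), a cap-binding repressor, measured 11.27 and 11.01 against 11.28 and 11.20, a difference of -0.10. These 3 cap-binding genes were on the lower side. EIF4E3 and EIF4E had both mutant arrays below both vector arrays (17.9% of all probe sets), and EIF4E2 had overlapping groups. The set of 3 was also picked after the values were seen. EIF4E1B, a homolog known from oocytes, had a signal under the table's median and a difference of -0.015.

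Among the factors that work with the cap-binding protein, EIF4G1, the scaffold that joins the cap to the ribosome, measured 13.54 and 13.33 with the mutant and 13.31 and 13.48 with the vector, a difference of 0.04. EIF4B and EIF4H, which stimulate the eIF4A helicase, differed by 0.00 and -0.08. For EIF4B the 95% interval ran from -0.221 to 0.221. Replicates of EIF4H spread more than the groups did: replicate 1 was at 15.59 and 15.66 and replicate 2 at 15.25 and 15.34, with the mutant named first. Without H2BK120R replicate 2 the median of the eIF4 genes was 0.03, and it was -0.18 without H2BK120R replicate 1 or without vector replicate 2. EIF4A1, EIF4A2, EIF4G2 and EIF4G3 were not analysed here. Among regulators that bind eIF4E, EIF4EBP2, a repressor released by mTORC1 signalling, was at 14.70 and 14.69 with the mutant and 14.71 and 14.72 with the vector. Those groups did not overlap (36.5% of all probe sets), yet the difference was only -0.02 ± 0.10 (SE). EIF4EBP1, of the same family, differed by -0.195, and by 0.06 without vector replicate 1. EIF4ENIF1, the eIF4E transporter, differed by 0.07 ± 0.22 (SE).

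**Figure D4:**
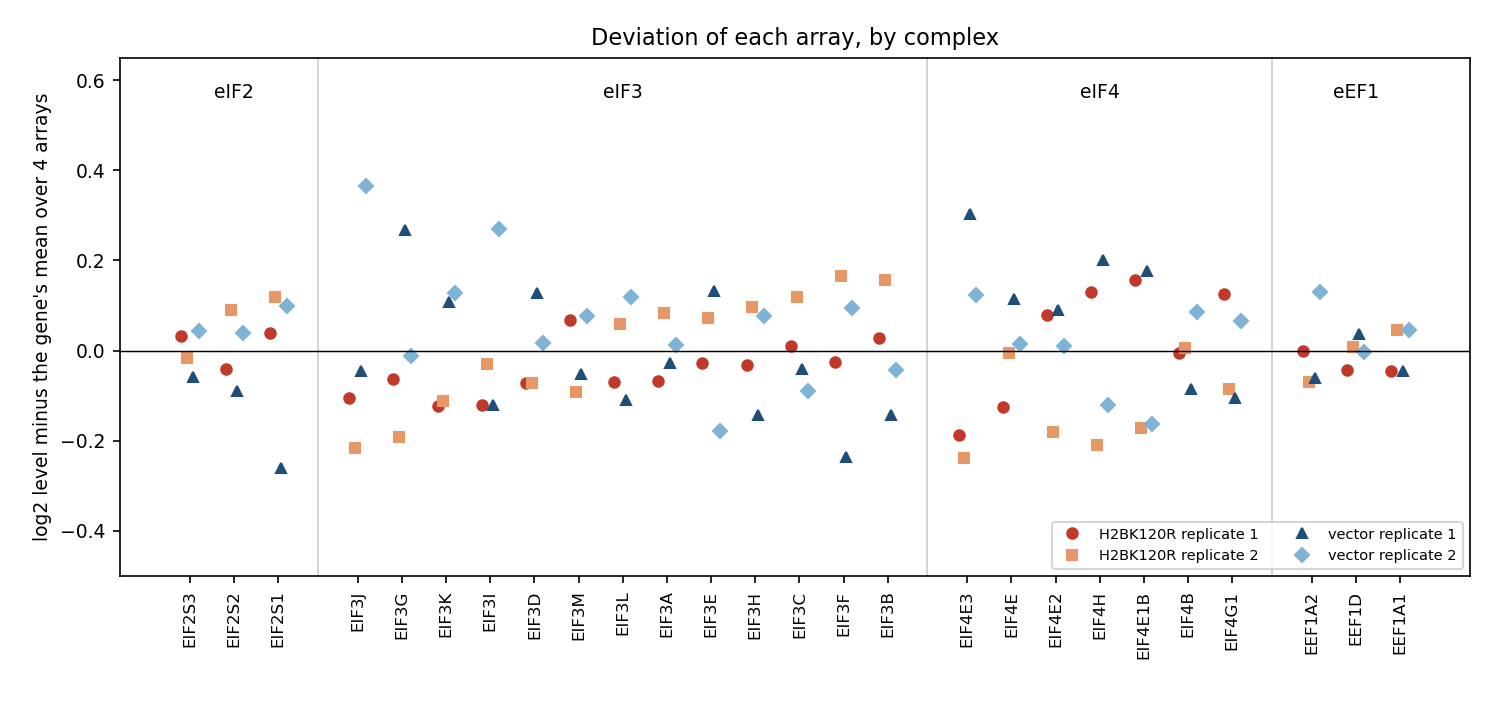
Deviation of each array from the gene's mean over 4 arrays (log2) for the measured genes of eIF2, eIF3, eIF4 and eEF1, ordered within a complex by their difference. Mutant (red, orange) and vector (blue) arrays are mixed in most genes. EIF3K, EIF3D, EIF3G, EIF3J, EIF4E and EIF4E3 have both mutant arrays below both vector arrays, as do 17.9% of all probe sets. EIF3B and EIF3C have both mutant arrays above both vector arrays, as do 18.6% of all probe sets.

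The list of factors for start codon selection and subunit joining had a median of -0.14 over 8 genes, with 5 lower, 2 higher and 1 equal. It also holds EIF6 and the eIF1A relative EIF1AD, whose differences of -0.495 and -0.36 were its lowest. EIF6 binds the large subunit, keeps it from joining too early and takes part in its assembly. It measured 12.25 and 12.26 with H2BK120R and 12.86 and 12.64 with the vector. The mutant arrays agree within 0.01 (SD 0.007) and lie below both vector arrays, as they do for 17.9% of all probe sets. The difference of -0.495 ± 0.14 (SE) had the smallest unadjusted p of the 58 genes, 0.00375, and a limma adjusted p of 0.678. It ranged from -0.605 to -0.385 with 1 array left out.

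EIF5B, the GTPase of subunit joining, measured 10.09 and 9.95 with the mutant and 10.21 and 10.19 with the vector, a difference of -0.18 ± 0.17 (SE). EIF1AD, a relative of eIF1A, measured 9.90 and 10.19 against 9.76 and 11.05, and its difference of -0.36 became 0.285 without vector replicate 2. EIF1, which guards start codon choice, and its paralog EIF1B differed by -0.10 and 0.155. EIF1AX and EIF1AY encode nearly the same protein and may share probes, and they differed by 0.09 and -0.265. EIF5, the activator of GTP hydrolysis by eIF2, was at 15.60 in both groups. EIF4A3, a helicase of the exon junction complex despite its name, differed by -0.29 ± 0.22 (SE).

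Elongation factor genes differed little. EEF1A1, the main tRNA carrier of elongation, measured 17.72 and 17.81 in the mutant arrays and the same 2 values in the vector arrays. Its 95% interval was -0.188 to 0.188. EEF1D, a subunit of the exchange complex, measured 14.21 and 14.26 against 14.29 and 14.25, a difference of -0.035. EEF1A2, the isoform of muscle and neurons, measured 7.15 and 7.08 against 7.09 and 7.28, a difference of -0.07 with a wider interval of -0.618 to 0.478. The groups overlapped for all 3, and their median was -0.035. EEF1B2, EEF1G and EEF2 were not analysed here. EIF5A, which relieves stalls at proline stretches, differed by 0.01, with an interval of -0.199 to 0.219. EIF5A2, its paralog, measured 10.12 and 10.29 against 10.35 and 10.40, a difference of -0.17. EIF5AL1, a near-identical copy of EIF5A, differed by -0.20 ± 0.30 (SE). It was the dimmest of the 58 genes, with a mean signal of 4.12, under the table's median.

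Among enzymes that modify elongation factors, the 4 measured methyltransferases had a mean size of difference of 0.208. That was under their median standard error of 0.232 and under the 0.243 of all probe sets. EEF2KMT, a lysine methyltransferase of eEF2, had the highest difference of all, 0.47 ± 0.23 (SE), with a limma adjusted p of 0.746. It measured 10.39 and 10.42 with the mutant and 9.57 and 10.30 with the vector. The difference was 0.105 without vector replicate 1 and 0.835 without vector replicate 2. EEF1AKMT1, EEF1AKMT2 and EEF1AKMT3, which methylate eEF1A, differed by -0.14, 0.13 and 0.09, each with overlapping groups. The signal of EEF1AKMT1 lay under the table's median. EEF2K, the kinase that halts eEF2, differed by -0.085 ± 0.21 (SE). The read-through transcript EEF1E1-BLOC1S5 differed by 0.17 ± 0.27 (SE).

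Comparing the complexes, the medians were 0.05 for eIF2, -0.01 for eIF3, -0.08 for eIF4 and -0.035 for eEF1. The spread of these medians between replicate arrays (pooled SD within groups) was 0.0722, 0.0866, 0.136 and 0.0515. Each median was smaller than that spread, and the complexes could not be ordered against one another. The mean size of a difference was 0.035 in eEF1, 0.075 in eIF2, 0.113 in eIF4 and 0.132 in eIF3, and 0.264 for the eIF2 kinases. In the same order, the median standard errors were 0.108, 0.124, 0.144, 0.138 and 0.197. In each of the 4 complexes the mean size was under this error, so these sizes do not rank the complexes. For any single value, the smallest two-sided p of an exact permutation test on 4 arrays in 2 groups is 0.333.

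Many messages of the translation machinery begin with a cytosine and a run of pyrimidines, the 5′ terminal oligopyrimidine (TOP) motif through which mTORC1 and LARP1 control their translation. The annotated start sites of RefSeq (GRCh38.p14) were searched on the sense strand for a C at the first transcribed base followed by at least 4 bases that are C or T. Of the 58 genes 45 had a promoter entry, and 9 of these (20%) had such a start, against 6.09% of 14250 tested genes. Genes with several annotated starts counted when any of them matched. The windows below show 15 bases on either side of the start, with the run in capitals, for the members of the 4 complexes in which the run and the array values can be set side by side. EIF6, which has the smallest p, is added as a gene without one.
EEF1A1 (chr6:73521018-73521047, minus strand): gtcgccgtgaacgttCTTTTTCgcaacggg
EIF2S3 (chrX:24054941-24054970, plus strand): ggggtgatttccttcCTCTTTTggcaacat
EIF4B (chr12:53006441-53006470, plus strand): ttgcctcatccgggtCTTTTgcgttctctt
EIF3M (chr11:32583816-32583845, plus strand): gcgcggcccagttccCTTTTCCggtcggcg
EIF3F (chr11:7987322-7987351, plus strand): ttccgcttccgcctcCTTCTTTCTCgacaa
EIF3D (chr22:36529152-36529181, minus strand): gcgcgcgcatgtttcCTCTTTTCCTggttt
EIF3K (chr19:38619173-38619202, plus strand): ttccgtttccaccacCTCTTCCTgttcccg
EIF6 (chr20:35284758-35284787, minus strand, the upstream of its 2 annotated starts): gaaacctttttagggagtccaaggtacagt

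The 9 factor genes with such a start had a median difference of 0.00, with 4 lower, 3 higher and 2 equal. EEF1A1 and EIF4B differed by 0.00, EIF2S3 by 0.015 and EIF3M by -0.025. EIF2D and EIF3F were higher by 0.175 and 0.14, and EIF2A, EIF3D and EIF3K differed by -0.12, -0.145 and -0.235. The 36 factor genes with other starts had a median of -0.055, with 21 lower, 14 higher and 1 equal. The cytosolic ribosomal protein genes, which share this kind of start, stood elsewhere in the same arrays. Of 45 measured by symbol, 42 were lower with H2BK120R, with a median of -0.25, and both mutant arrays lay below both vector arrays in 32 (17.9% of all probe sets). Among the 41 with a promoter entry, 30 had the pyrimidine start, and all 30 of these were lower, with a median of -0.25. The 11 without it had a median of -0.085, with 8 lower and 3 higher. RPS29, with the lowest difference of the 41 (-0.57), was among these 11. The ribosomal shift was known before this comparison was set up, the difference between the factor and ribosomal genes was not tested, and genes are not independent replicates. A match to the run describes the annotated letters only. The list of factor messages known to carry a TOP motif holds 12 genes, of which EEF1A1, EEF1D, EIF3E, EIF3F, EIF3H, EIF3L and EIF4B were measured. Their median was 0.00, the groups overlapped in all 7, and their differences ran from -0.035 to 0.14. Of these 7, EEF1D, EIF3E, EIF3H and EIF3L had no promoter entry, so their starts were not searched.

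**Figure D5:**
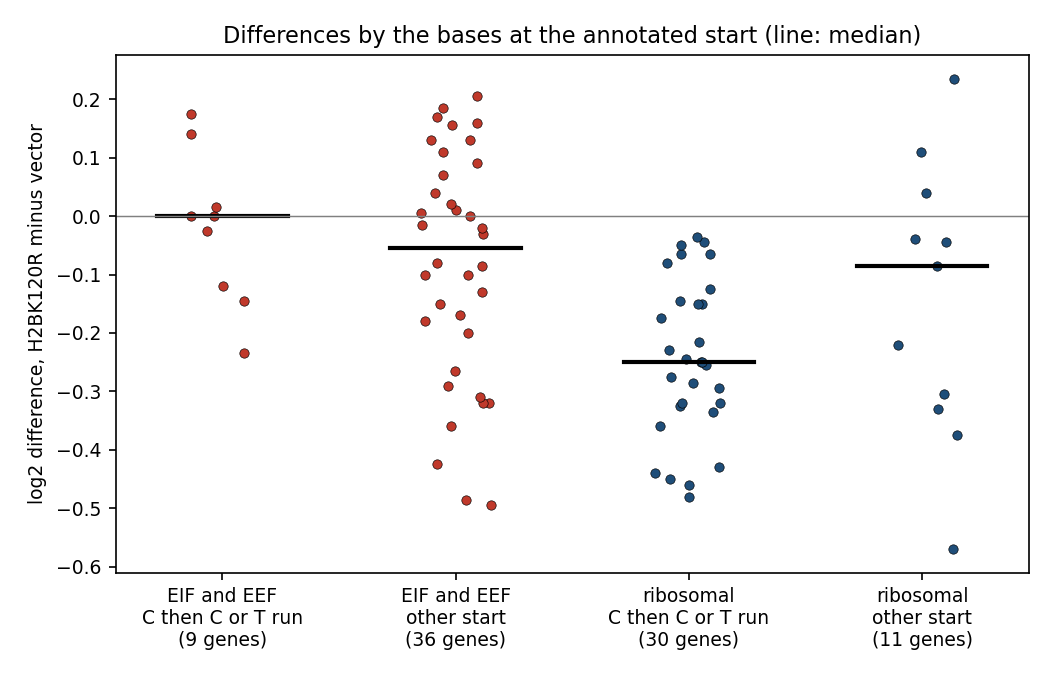
Log2 difference, H2BK120R minus vector, of translation factor genes (red) and cytosolic ribosomal protein genes (blue), split by whether an annotated start is a C followed by at least 4 C or T bases. Lines are medians: 0.00 and -0.055 for the factors and -0.25 and -0.085 for the ribosomal genes.

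Within the 300 bases around the starts, CACGTG, the E-box letters that MYC binds, was found in 26.7% of the factor genes and 10.8% of all tested genes. On either strand, CGGAAG, the core letters of ETS family sites, was found in 37.8% and 30.0%. The 17 factor genes with CGGAAG had a median difference of -0.12, with 13 lower and 4 higher, and the 28 without it had a median of 0.00. EIF6, EIF2AK3, EIF2B1 and EIF2B2 held these letters, and EIF4E3, EIF3J, EIF4A3 and EIF3K, also on the lower side, did not. Over all tested genes with CGGAAG the median was 0.01. Factor genes with and without CACGTG had medians of -0.04 and -0.025. These letter searches were chosen after the values were seen.

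Other genes of the pathway from the fixed lists gave 0 calls in limma after adjustment. Of 48 measured, 4 (8.33%) had an unadjusted p under 0.05, a share near the 6.70% of all probe sets, and 26 kept the sign of their difference with any 1 array left out. The 4 were DNAJC24, DPH6, CHAC1 and MKNK2. Among 8 measured enzymes that make hypusine on eIF5A or diphthamide on eEF2, there were 5 higher and 3 lower genes, and the median was 0.19. The 5 higher genes were all of the diphthamide pathway. The hypusine enzymes DHPS and DOHH differed by -0.135 and -0.34, with overlapping groups. DNAJC24 (DPH4), a J-domain protein of diphthamide synthesis, measured 10.01 and 10.20 with the mutant and 9.55 and 9.65 with the vector. DPH6, which completes diphthamide, measured 7.46 and 7.97 against 6.65 and 7.26. The groups did not overlap for either gene, nor did they for 36.5% of all probe sets. The differences were 0.505 ± 0.18 and 0.76 ± 0.29 (SE), with limma adjusted p-values of 0.722 and 0.745. For DPH6 the value fell to 0.455 when vector replicate 1 was dropped and to 0.505 when H2BK120R replicate 2 was. DPH3, an electron carrier for the first step, differed by 0.29, and DPH5, the methyltransferase of the pathway, by -0.35, which became -0.175 without vector replicate 1.

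In the integrated stress response, which eIF2 phosphorylation sets off, there were 7 higher and 2 lower genes among 9, and the median was 0.045. Among the 7, ATF4, PPP1R15B, TRIB3 and NUPR1 differed by 0.07, 0.04, 0.045 and 0.045. None of those kept its sign in every fit with 1 array left out. PPP1R15A differed by -0.175, with both mutant arrays below both vector arrays (17.9% of all probe sets). CHAC1, a glutathione-degrading target of ATF4, measured 9.56 and 9.61 with the mutant and 8.01 and 9.20 with the vector. Its difference was 0.98 ± 0.32 (SE), with a limma adjusted p of 0.693, and it was 0.385 without vector replicate 1 and 1.575 without vector replicate 2. ATF4 itself was at 11.96 in both mutant arrays and at 11.80 and 11.98 with the vector. ASNS, asparagine synthetase, and DDIT3, the stress factor CHOP, differed by 0.205 and 0.36 with overlapping groups, and for DDIT3 the difference was -0.21 without H2BK120R replicate 2 and -0.01 without vector replicate 2.

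Of 13 measured genes of mTORC1 and cap signalling, there were 7 on the higher and 6 on the lower side, around a median of 0.005. MKNK2, a kinase that phosphorylates eIF4E, measured 8.26 and 8.22 with the mutant and 8.76 and 8.98 with the vector. Its difference was -0.63 ± 0.21 (SE), with a limma adjusted p of 0.693. The groups did not overlap, nor did they for 36.5% of all probe sets. LARP1, the repressor of TOP messages, differed by 0.22 ± 0.12 and TSC1, an inhibitor of the pathway, by 0.23 ± 0.14 (SE). Their limma adjusted p-values were 0.765 and 0.772. Each had both mutant arrays above both vector arrays, as did 18.6% of all probe sets.

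The remaining lists had medians close to 0. Termination and recycling factors had a median of 0.05 over 6 genes, where MCTS1 differed by -0.315 and the release factors ETF1 and GSPT2 by 0.105 and 0.185. Mitochondrial translation factors had a median of 0.015 over 7 genes, with MTRF1 and MRRF at 0.195 and 0.075. MTRF1 was at -0.20 without vector replicate 2. MTIF3, an initiation factor, measured 6.99 and 7.13 with the mutant and 5.99 and 6.90 with the vector, a difference of 0.615 ± 0.32 (SE) that was 0.16 without vector replicate 1. For the poly(A)-binding group the median was -0.01 over 5 genes. PABPC4 differed by 0.195 and PAIP2, an inhibitor of poly(A)-binding protein, by -0.135. PABPC3, an intronless copy that may share probes with its parent, measured 10.18 and 10.27 against 9.06 and 10.60. Its difference of 0.395 ± 0.37 (SE) was -0.375 without vector replicate 1.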

How the data were processed

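The members, the gene lists and the tests were chosen with earlier results of these data known. Each array has 1 value for every probe set, which the authors deposited on a log2 scale after normalizing between arrays. That base and the normalization are inferred from the range of 1.56 to 19.15 and the near-equal array medians. The submitters' processing notes name MAS5 without a version. For the probe summary, background correction and genome build, nothing is given in the sources used here, so a compression of fold changes by that step cannot be judged.

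Symbols came from GEO's platform annotation: 17709 of 21448 probe sets had 1 symbol, 0 several, and 3739 were unnamed here. For each gene the brightest probe set stood. All 58 members matched RefSeq (GRCh38.p14) by gene ID. Sequences are from RefSeq's promoter table for that build.

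The 2 groups were fitted with limma 3.58.1 under R 4.3.3, using lmFit and then eBayes with trend, two-sided, and Benjamini-Hochberg over all probe sets, with 2 residual and 8.95 prior degrees of freedom. The script was tested on simulated data. Lists are described by counts and medians, with no test of a list. Named were all measured genes of eIF2, eIF3, eIF4 and eEF1, the 6 lowest and 6 highest differences, and the 4 smallest p-values of each other role. The brightest and dimmest member and up to 3 genes of each further list were named too. Beyond that rule, DPH5, DHPS, DOHH, ATF4, NUPR1, PPP1R15A, PPP1R15B and TRIB3 were added. Alternatives were quantile normalization, equal medians, a filter on the dimmest 25% or 50%, only single-symbol probe sets, no trend, the robust option, a replicate block, averaging probe sets of a gene, leaving out near-identical copies, and leaving out each array. For arrays, their number limits the precision. Figures were drawn with matplotlib 3.10.9.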

Additional observations from a re-analysis of the deposited data

How the results depend on the processing

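Under every setting listed in the methods, arrays left out included, 0 probe sets, and so 0 of the genes tested, passed an adjusted p of 0.05 in limma. All 58 genes were tested except with the dimmest 25% (57 genes) or 50% (55) or near-identical copies (55) left out. Averaging the probe sets of a gene could change nothing, since each of the 58 has 1. As reported, 1437 probe sets and 4 of the 58 genes had an unadjusted p under 0.05. With the dimmest 50% left out, where fewer were tested, 903 probe sets did. Without the variance trend 1 of the 58 did, and the cause was not tested. With 1 array left out, which leaves fewer arrays and a lone one assumed to vary like the other group, the counts lay between 495 and 2427 probe sets and between 1 and 7 genes. The lowest of both came when H2BK120R replicate 2 was dropped and the highest when vector replicate 2 was. Over the same fits the median of all 58 genes lay between -0.0625 and 0.015 and that of eEF1 between -0.045 and 0.025, the latter without vector replicate 2. Other settings moved no median of a complex beyond the spread between replicates. Quantile normalization changed the sign of 7 of 53 named genes and equal medians that of 6, while leaving out 1 array changed between 11 and 17. These counts include moves from or to exactly 0, which are not reversals. With equal medians, EEF1A1 and EIF4B moved from 0 to -0.015, and EIF2S3 and EIF3A from 0.015 to 0.

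The replicate numbers are not known to pair the cultures: deviations of same-numbered arrays correlated at 0.141 across probe sets. With the replicate number as a block, 5 of the 58 genes (8.62%) and 1846 of 21448 probe sets (8.61%) had an unadjusted p under 0.05, and 0 passed after adjustment.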
